A study of Mus musculus with 8 samples.

Results

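The contractile genes of smooth muscle and myofibroblasts were followed in lungs of young mice given dexamethasone, retinoic acid, both or neither. The set held 9 genes, Acta2, Actg2, Myh11, Tagln, Cnn1, Mylk, Tpm2, Smtn and Des, and was made up of every probe set of the array whose annotated symbol was one of these names. That gave 10 of the 12422 probe sets that were not controls. Of the 10, 9 passed the filter on low signals, 1 for each gene, among 7309 that passed over the whole array.

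RNA of whole mouse lung was hybridised to 8 arrays of an Affymetrix mouse expression array, in 4 groups of 2. The RA-Dex group received retinoic acid on day 3 and dexamethasone on day 4, the Dex group oil and dexamethasone, the RA group retinoic acid and saline, and the Dil group, which the labels do not define, was taken as the remaining arm of oil and saline. All groups therefore had a treatment on both days. The labels do not say whether the arrays lettered a and b in a group were separate animals, pools or repeat hybridisations, so the p-values below measure only the spread between these samples, and 2 arrays per group limit their precision. The sources used here give no dose, strain or time of collection. By its title the series concerns how septation of the alveoli is inhibited and how it is protected.

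Smooth muscle of airways and vessels and the myofibroblasts at the tips of growing alveolar septa both build filaments from smooth muscle actin and myosin and from the proteins that tie, stiffen and regulate them. Myosin light chain kinase starts contraction by phosphorylating the myosin light chain. Most of these genes are switched on by serum response factor with myocardin or the related factors MRTF, which act at short DNA elements called CArG boxes. In newborn rodents glucocorticoids such as dexamethasone block septation, the division of the air sacs by new walls, and retinoic acid promotes it.

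The deposited values were linear signals scaled to the same level on every array, and fold changes below are differences of log2 signal from limma with standard errors (SE). A change was called at an adjusted p under 0.05 (limma, Benjamini-Hochberg over 7309 probe sets). In whole lung, fewer cells of a type and less RNA per cell cannot be told apart. Median signals per array lay between 316 and 342. The lung identity of the samples was plain from Sftpc, the surfactant protein C gene of alveolar type II cells, with 66508 to 80814 on the dexamethasone arrays and 61592 to 84336 on the others, and from Scgb1a1, the club cell secretoglobin gene, with 40487 to 50816 and 40353 to 52034. None of the 9 tested contractile genes fell to the floor signal of 85.3 on any array.

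The upstream windows of Acta2 and Mylk are shown because, among the 6 contractile genes matched in the RefSeq promoter table (GRCm38.p6), they are the ones that held a searched motif. The windows searched ran from 250 bases before the start of the gene to 50 after it, and the 250 bases before the start are printed 5′ to 3′ along the gene, with the matches in capitals. Acta2 lies on the minus strand (chr19:34255374-34255623) and Mylk on the plus strand (chr16:34784700-34784949).
Acta2: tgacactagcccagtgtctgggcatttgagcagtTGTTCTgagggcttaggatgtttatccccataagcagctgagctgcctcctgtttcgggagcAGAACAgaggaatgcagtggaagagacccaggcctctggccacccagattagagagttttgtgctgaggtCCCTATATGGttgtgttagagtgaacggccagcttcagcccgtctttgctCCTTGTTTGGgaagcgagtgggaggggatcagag
Mylk: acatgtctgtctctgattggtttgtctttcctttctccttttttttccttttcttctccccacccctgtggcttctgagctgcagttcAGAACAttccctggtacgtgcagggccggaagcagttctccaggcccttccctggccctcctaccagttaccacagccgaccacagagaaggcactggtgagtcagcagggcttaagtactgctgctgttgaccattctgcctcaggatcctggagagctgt
The CArG-like motif was CC, then 6 bases of which at least 5 were A or T, then GG, a pattern that reads alike on both strands. Acta2 had 2 matches, CCCTATATGG from 84 to 75 bases and CCTTGTTTGG from 34 to 25 bases before the start. The windows of Cnn1, Mylk, Tpm2, Smtn and Des had none. Of all 32851 windows in the table, 9.98% held at least 1 such match and 0.822% at least 2. The stricter box with 6 A or T bases was in none of the 6 windows and in 1.63% of all. The second motif was AGAACA on either strand, the core hexamer of glucocorticoid receptor binding elements, and none of its matches here overlapped a CArG-like match. It occurred in 2 places in Acta2, from 216 to 211 and from 154 to 149 bases before the start, and in 1 place in Mylk, from 162 to 157 bases before it, against 19.0% of all windows with at least 1. These matches describe the letters only. Actg2, Myh11 and Tagln were not among the genes matched.

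**Figure D1:**
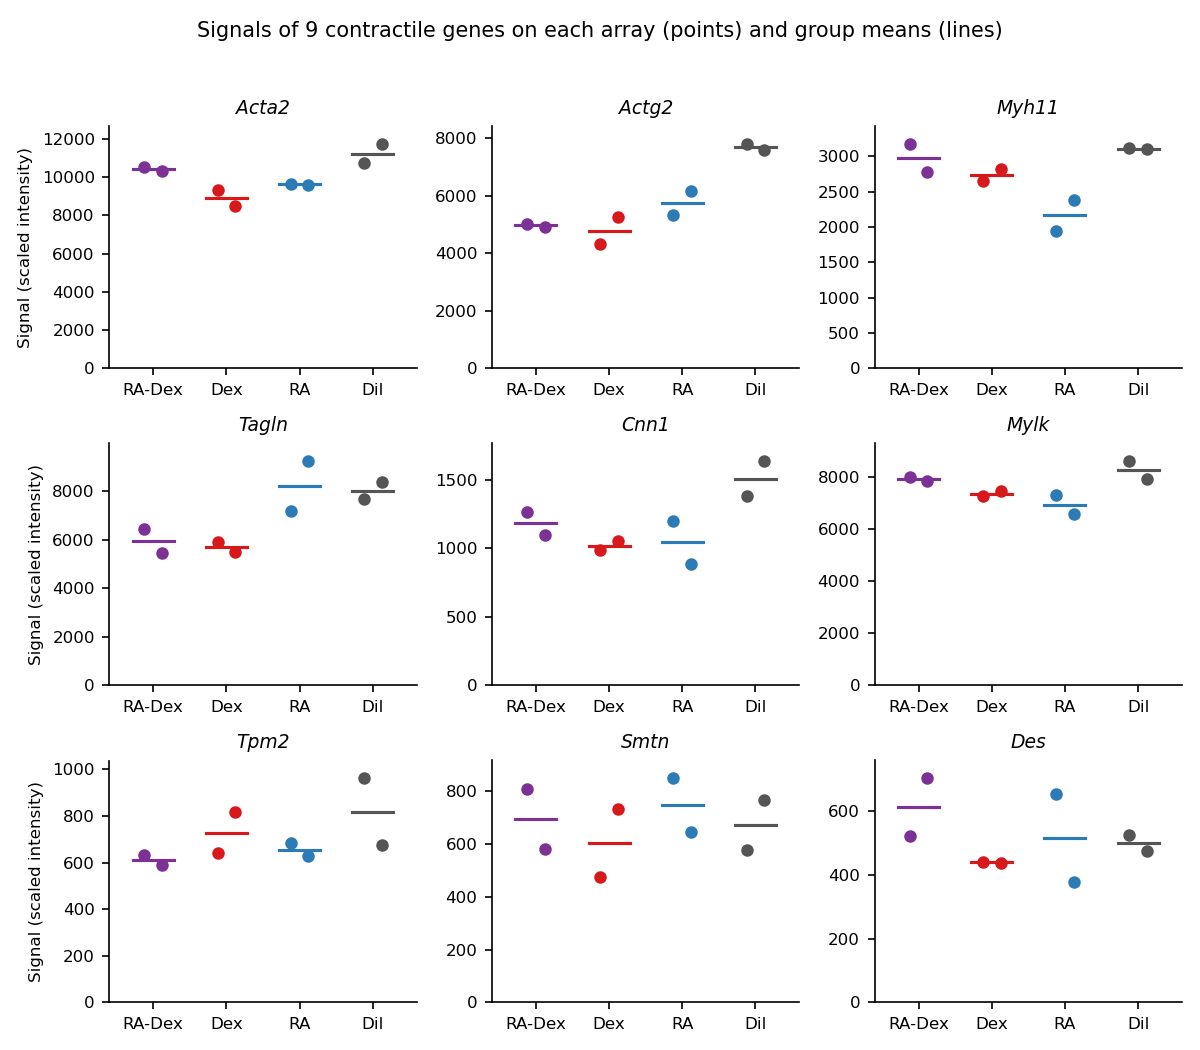
Signal (linear scaled intensity, axis from 0) of the 9 contractile genes, 1 panel per gene, with each point an array and each line the mean of the 2 arrays of a group. Actg2 and Tagln have all 4 dexamethasone arrays below all 4 others, and Acta2, Actg2 and Cnn1 have both Dil arrays above all 6 others.

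The first comparison asked what dexamethasone did in lungs that had received oil, Dex against Dil. Of the 9 genes, 1 fell, Actg2, and none rose, beside 1.23% of the 7309 probe sets that fell and 2% that rose. All 9 fold changes were below 0, where 46.9% of all probe sets were above 0, and their median was -0.18 against -0.02 for all probe sets. In 7 of the 9, all but Tpm2 and Smtn, both Dex arrays were below both Dil arrays, beside 24.6% of all probe sets.

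Among the actins, Actg2, the enteric form of smooth muscle gamma actin, had signals of 4320 and 5262 in Dex lungs, against 7785 and 7605 in Dil lungs. Both Dex arrays were far below both Dil arrays, and the Dex arrays differed from each other more than the Dil arrays did. The group means were 4791 ± 666 in Dex lungs and 7695 ± 127 in Dil lungs (SD, n = 2 each). The log2 fold change was -0.69 ± 0.146 (SE), a ratio of 0.620 with a 95% confidence interval from 0.495 to 0.775 (limma, adjusted p = 0.0294). The call was lost without any one of the Dex, Dil or RA-Dex arrays, with adjusted p-values of 0.061 to 0.257, and kept without either RA array. The identifier of the Actg2 probe set carries the array maker's suffix f, for sequences shared within a gene family, so signal from other actins cannot be told apart from it.

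Acta2, the alpha actin of vascular smooth muscle and the usual marker of myofibroblasts, had signals of 9344 and 8480 in Dex lungs, against 10744 and 11717 in Dil lungs. The groups did not overlap, but the log2 fold change of -0.33 ± 0.123 (SE) did not pass the test (limma, adjusted p = 0.213).

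Of the actin-binding proteins, Tagln encodes transgelin, which crosslinks actin, and Cnn1 encodes calponin, which restrains myosin. Tagln had 5909 and 5483 in Dex lungs, against 7684 and 8358 in Dil lungs, groups that did not overlap. Its log2 fold change was -0.49 ± 0.157 (SE; limma, adjusted p = 0.141). Cnn1 had 990 and 1052 in Dex lungs, against 1382 and 1635 in Dil lungs, again without overlap. Its log2 fold change was -0.56 ± 0.201 (SE; limma, adjusted p = 0.204), so that its 95% confidence interval, with an upper end of -0.11, lay below 0 while it was not called over the whole array. The same held for Tagln, with an interval from -0.84 to -0.15, and for Acta2, from -0.60 to -0.06. The Cnn1 probe set carries the suffix s, for a sequence shared by more than 1 transcript.

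The motor genes had smaller fold changes. Myh11, the smooth muscle myosin heavy chain, had 2650 and 2826 in Dex lungs, against 3115 and 3102 in Dil lungs. Mylk, the myosin light chain kinase gene, had 7267 and 7465 in Dex lungs, against 8605 and 7933 in Dil lungs. Both genes were lower on each Dex array than on each Dil array, with log2 fold changes of -0.18 and -0.17 that did not pass the test (limma, adjusted p = 0.679 and 0.619).

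Tpm2 encodes beta tropomyosin, Smtn smoothelin, a marker of contractile smooth muscle, and Des desmin, the muscle intermediate filament protein. Tpm2 had 641 and 815 in Dex lungs, against 961 and 675 in Dil lungs, and Smtn had 474 and 734 against 579 and 766, so both genes overlapped between the groups. Des had 441 and 437 in Dex lungs, against 525 and 474 in Dil lungs, without overlap. Their log2 fold changes of -0.16, -0.17 and -0.18 had standard errors of 0.232 to 0.289, larger than the changes themselves. The second probe set of Tpm2, which failed the filter, was at or under the floor on 4 of 8 arrays. It had 98.6, 29.4, 70 and 21.5 on the RA-Dex and Dex arrays, against 170, 78.6, 109 and 148 on the RA and Dil arrays, and the 4 dexamethasone arrays did not differ from the 4 others by an exact permutation test (two-sided p = 0.143, where 0.0286 is the smallest possible).

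The second comparison asked the same of lungs that had received retinoic acid, RA-Dex against RA. None of the 9 genes was called, beside 3.5% of all probe sets, and 2 had an unadjusted p under 0.05 (limma), beside 15.8%. The directions were mixed, with 5 fold changes above 0, where 44% of all probe sets were, and 4 below, and the median was 0.12 against -0.05 for all probe sets. RA-Dex was above RA without overlap in Acta2, Myh11 and Mylk, beside 18.5% of all probe sets, and below it in Actg2 and Tagln, beside 26.3%.

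Myh11 had 3168 and 2771 in RA-Dex lungs, against 1943 and 2387 in RA lungs, the 2 lowest values of this gene on the 8 arrays. Its log2 fold change was 0.46 ± 0.161 (SE; limma, adjusted p = 0.181). Tagln had 6459 and 5450 in RA-Dex lungs, against 7192 and 9220 in RA lungs, with a log2 fold change of -0.46 ± 0.157 (SE; limma, adjusted p = 0.175). These were the only 2 genes of the set with an unadjusted p under 0.05 in this comparison, and they had opposite signs.

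Acta2 had 10543 and 10327 in RA-Dex lungs, against 9640 and 9611 in RA lungs, and Mylk had 8016 and 7866 against 7298 and 6578. The RA-Dex arrays were the higher in both genes, by 0.12 and 0.20 on the log2 scale (limma, adjusted p = 0.716 and 0.515). Actg2 had 5015 and 4920 in RA-Dex lungs, against 5336 and 6155 in RA lungs, a log2 fold change of -0.21 ± 0.146 (SE; limma, adjusted p = 0.564).

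The remaining genes overlapped between RA-Dex and RA lungs. Cnn1 had 1268 and 1099 in RA-Dex lungs, against 1200 and 889 in RA lungs. Tpm2 had 632 and 588 in RA-Dex lungs, against 684 and 628 in RA lungs. Smtn and Des had the widest spread within groups: Smtn had 810 and 582 in RA-Dex lungs, against 849 and 644 in RA lungs, and Des had 523 and 703 against 654 and 379. The adjusted p-values of these 4 genes were 0.701 to 0.904 (limma), and their log2 fold changes ran from -0.11 to 0.28.

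Averaged over both day 3 treatments, with 4 dexamethasone arrays against 4 others, 2 of the 9 genes fell, Actg2 and Tagln, and none rose. Over the whole array 3.57% of probe sets fell and 4.26% rose. Actg2 fell by 0.45 on the log2 scale (SE 0.103), a ratio of 0.733 with a 95% confidence interval from 0.626 to 0.859 (limma, adjusted p = 0.0235). Tagln fell by 0.48 on the log2 scale (SE 0.111), a ratio of 0.719 with a 95% confidence interval from 0.607 to 0.853 (limma, adjusted p = 0.0253). In these 2 genes every dexamethasone array lay below every other array, as in 7.78% of all probe sets. For Tagln the changes behind the average were -0.49 against Dil and -0.46 against RA, and for Actg2 they were -0.69 and -0.21. The gap between the 2 changes of Actg2, 0.48 ± 0.207, was not called (SE; limma, adjusted p = 0.879). The 2 genes were not tested against each other.

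Both average calls were sensitive to single arrays. That of Actg2 was lost without Dex a, Dil a, Dil b, RA b, RA-Dex a or RA-Dex b, with adjusted p-values of 0.055 to 0.115, and that of Tagln without Dex a, Dex b, Dil b, RA b or RA-Dex b, with 0.063 to 0.123. Leaving out both Dil arrays leaves RA-Dex against RA, in which neither gene was called.

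**Figure D2:**
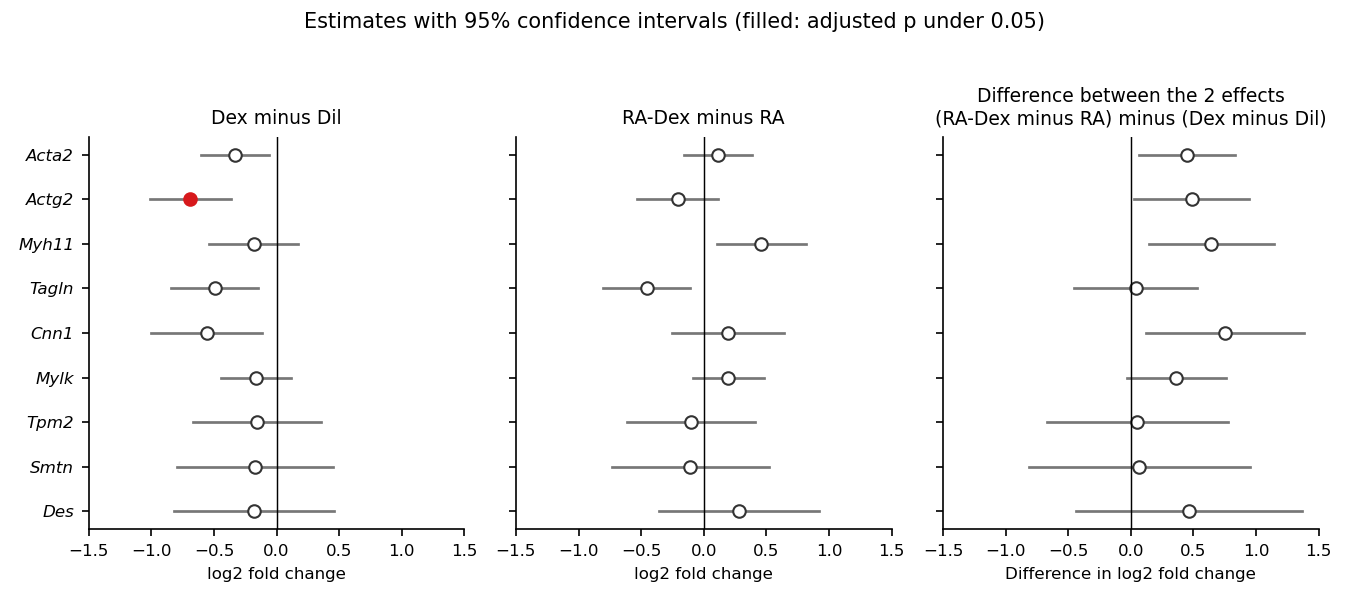
Log2 fold changes of the 9 genes in Dex minus Dil (left) and RA-Dex minus RA (middle), and the difference between these 2 effects (right), with 95% confidence intervals from limma and a line at 0. The filled point, Actg2 in Dex minus Dil at -0.69, is the one estimate here with an adjusted p under 0.05, and all 9 differences on the right are above 0, from 0.04 to 0.75, with none called.

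Whether the dexamethasone effect differed after retinoic acid was tested as an interaction, RA-Dex minus RA less Dex minus Dil. None of the 9 genes was called, beside 0.0137% of all probe sets, and 4 had an unadjusted p under 0.05 (limma), beside 5.6%. All 9 differences were above 0, where 48.2% of all probe sets were, and their median was 0.45 against -0.02. The values were 0.75 ± 0.285 for Cnn1, 0.64 ± 0.227 for Myh11, 0.48 ± 0.207 for Actg2 and 0.45 ± 0.174 for Acta2 (SE; limma, adjusted p = 0.811 to 0.879). Des at 0.47 and Mylk at 0.36 had intervals that reached below 0, and Smtn at 0.07, Tpm2 at 0.05 and Tagln at 0.04 lay near it. The interaction uses the same Dil arrays as Dex minus Dil, so the signs in these 2 comparisons are not separate observations. Differences above 0 were not particular to this set. Among the lists given below, they were found in 11 of 13 skeletal muscle genes (median 0.67) and 10 of 11 cardiac genes (0.57). They were also found in 7 of 8 fibroblast genes (0.42) and 10 of 12 non-muscle actomyosin genes (0.21). Of the other contractile apparatus genes 5 of 11 were above 0 (-0.01), and of the regulators 19 of 28 (0.09).

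The comparison of RA with Dil asked what retinoic acid did without dexamethasone. None of the 9 genes was called, beside 0.0274% of all probe sets, and 3 had an unadjusted p under 0.05 (limma), beside 7.99%. In 5 genes, Acta2, Actg2, Myh11, Cnn1 and Mylk, both RA arrays were below both Dil arrays, beside 15.9% of all probe sets. Myh11 was lower by 0.53 on the log2 scale, at -0.53 ± 0.161 (SE; limma, adjusted p = 0.437), Cnn1 had -0.54 ± 0.201 (adjusted p = 0.538) and Actg2 had -0.43 ± 0.146 (adjusted p = 0.469). Tagln, at 7192 and 9220 in RA lungs against 7684 and 8358 in Dil lungs, spanned the Dil values, with a difference of 0.02.

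RA-Dex against Dex asked what retinoic acid did ahead of dexamethasone. None of the 9 genes was called, beside 0.0958% of all probe sets, and none had an unadjusted p under 0.05 (limma), beside 4.13%. Acta2, Cnn1, Mylk and Des were higher on both RA-Dex arrays than on both Dex arrays, beside 16.3% of all probe sets, and Tpm2 was lower, beside 18.5%. The differences were small or wide: 0.23 for Acta2, with an interval from -0.04 to 0.50, and 0.46 for Des, with an interval that began at -0.17. For Actg2 and Tagln, the called genes, the differences were 0.06 each, with intervals from -0.26 to 0.38 and from -0.29 to 0.41.

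In the average over the day 4 treatments, retinoic acid arrays against the rest, none of the 9 genes was called, beside 0.15% of all probe sets, and none had an unadjusted p under 0.05 (limma), beside 6.29%. RA-Dex against Dil, both agents against neither, gave 1 call of the 9, a fall, beside 1.44% of all probe sets. It was Actg2, at 5015 and 4920 in RA-Dex lungs against 7785 and 7605 in Dil lungs, the tightest pairs of this gene. Its log2 fold change was -0.63 ± 0.146 (SE; limma, adjusted p = 0.0383), lost without any one of the Dex, Dil or RA-Dex arrays, with adjusted p-values of 0.0578 to 0.226. Both RA-Dex arrays were below both Dil arrays in 5 of the 9 genes, Acta2, Actg2, Tagln, Cnn1 and Tpm2, beside 27.1% of all probe sets. Without a call, Tagln had -0.43 ± 0.157 (SE; limma, adjusted p = 0.186) and Tpm2 -0.40 ± 0.232 (adjusted p = 0.444). Cnn1 had -0.35 (limma, adjusted p = 0.444) and Acta2 -0.10 (adjusted p = 0.741).

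The order of the 4 groups differed from gene to gene. Both Dil arrays were above all 6 others in 3 of the 9 genes, Acta2, Actg2 and Cnn1, beside 6.2% of all probe sets. The set was chosen with earlier results of these data known, so this count is a description only. Acta2 ran Dil, RA-Dex, RA and Dex from high to low by group mean, with no overlap between neighbours. Actg2 ran Dil, RA, RA-Dex and Dex, and its RA-Dex and Dex arrays overlapped. Tagln fell into a higher pair, RA and Dil, and a lower pair, RA-Dex and Dex, with overlap within each. In Myh11 the RA lungs stood alone below the other 3 groups. Over the 36 pairs of genes, Pearson correlations across the 8 arrays, which share their libraries and groups, ranged from -0.37 for Tagln with Des to 0.79 for Acta2 with Cnn1, with a median of 0.29. Actg2 with Tagln had 0.73.

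Of the other genes of the contractile apparatus, 17 of 27 listed were on the array and 11 were tested. In the dexamethasone average 2 of the 11 fell, Pdlim3 and Csrp1, and none rose, beside 3.57% and 4.26% of all probe sets. Pdlim3 encodes a PDZ and LIM protein that binds alpha-actinin. It had 639 and 468 in RA-Dex lungs and 647 and 583 in Dex lungs, against 1115 and 1094 in RA lungs and 1381 and 1185 in Dil lungs. All 4 dexamethasone arrays were well below the other 4, in both backgrounds. The fold changes were -1.06 ± 0.210 in Dex minus Dil (SE; limma, adjusted p = 0.0214) and -1.01 ± 0.210 in RA-Dex minus RA (adjusted p = 0.0248), with an average of -1.04 ± 0.149, a ratio of 0.488 (adjusted p = 0.00156). The average call held without each array in turn, while those of the 2 separate comparisons were lost without either Dex or Dil array (adjusted p = 0.0675 to 0.150) and without RA a, RA b or RA-Dex b (0.0746 to 0.216).

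Csrp1, a LIM protein of smooth muscle, had 10057 and 9209 in RA-Dex lungs and 9715 and 7980 in Dex lungs, against 11274 and 11581 in RA lungs and 12070 and 14753 in Dil lungs. The dexamethasone arrays were again all below the others. Its average fell by 0.42 on the log2 scale (SE 0.104; limma, adjusted p = 0.031), and a second probe set had -0.37 (adjusted p = 0.0368), a call lost without any one array but Dil a and RA a (0.0862 to 0.145). The call on the first was lost without any one of Dex b, Dil b, RA a, RA b, RA-Dex a and RA-Dex b (adjusted p = 0.0548 to 0.145). Tpm1, alpha tropomyosin, had -0.34 ± 0.0961 and did not pass (SE; limma, adjusted p = 0.0572).

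The list median of the 11 partners was -0.20, against -0.03 for all probe sets. The probe sets of Pdlim7, another PDZ and LIM gene, disagreed: the brightest, which stood for the gene, had -0.23 in the average (limma, adjusted p = 0.440), and another had -0.63 (adjusted p = 0.0174). The call on that other probe set was lost without Dex b, Dil a, RA-Dex a or RA-Dex b (adjusted p = 0.055 to 0.0814).

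**Figure D3:**
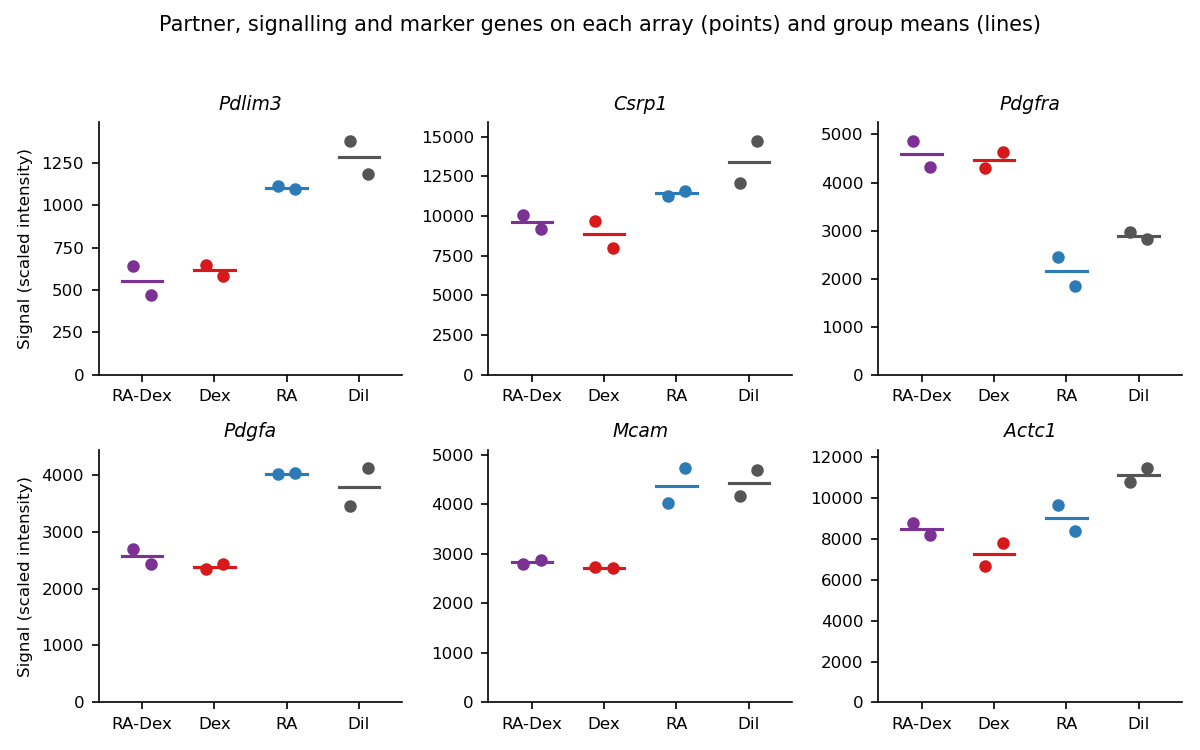
Signal (linear scaled intensity, axes from 0) of 6 genes from the other lists, with each point an array and each line the mean of the 2 arrays of a group. Pdlim3, Csrp1, Pdgfa and Mcam are lower on all 4 dexamethasone arrays than on all 4 others, Pdgfra is higher on them, and Actc1 is highest in Dil.

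Of genes that control the smooth muscle and myofibroblast programme, 32 of 39 listed were on the array and 28 were tested. In the dexamethasone average, counted over the brightest probe set of each gene, 1 rose, Pdgfra, and 3 fell, Pdgfa, Notch3 and Mef2c. Of all probe sets 4.26% rose and 3.57% fell. Pdgfra encodes the receptor that marks the precursors of alveolar myofibroblasts, and Pdgfa its ligand. Pdgfra had 4870 and 4327 in RA-Dex lungs and 4304 and 4645 in Dex lungs, against 2452 and 1849 in RA lungs and 2963 and 2828 in Dil lungs. Every dexamethasone array was above every other, and the average change was 0.87 ± 0.119, a ratio of 1.82 (SE; limma, adjusted p = 0.00117). A dimmer second probe set of Pdgfra had 0.05 (adjusted p = 0.945).

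Pdgfa had the opposite pattern, with 2694 and 2440 in RA-Dex lungs and 2337 and 2435 in Dex lungs, against 4012 and 4026 in RA lungs and 3451 and 4110 in Dil lungs. It fell by 0.65 on the log2 scale (SE 0.107; limma, adjusted p = 0.00351) without overlap between the dexamethasone arrays and the others. The average calls of Pdgfra and Pdgfa held without each array in turn.

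Notch3, a receptor of vascular smooth muscle and pericytes, fell by 0.63 (SE 0.167; limma, adjusted p = 0.043), a call lost without any one of 6 arrays, all but Dil b and RA-Dex a (adjusted p = 0.053 to 0.158). Mef2c, a muscle transcription factor gene, had 120 and 286 in RA-Dex lungs and a value under the floor and 141 in Dex lungs, against 272 and 378 in RA lungs and 443 and 338 in Dil lungs. Its change of -1.30 (adjusted p = 0.0457, limma) depends on the floor and was lost without any one array but RA-Dex b (0.0538 to 0.138).

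Mrtfa, a cofactor of serum response factor, was at 802 to 972 on the dexamethasone arrays and 842 to 1037 on the others, with -0.14 ± 0.129 (SE; limma, adjusted p = 0.596). Tgfb1, the ligand that drives myofibroblast differentiation, had -0.69 ± 0.232 (SE; limma, adjusted p = 0.106) with overlapping arrays. Fhl1, a LIM protein gene of muscle, had -0.25 ± 0.0782 in the average on its brightest probe set (SE; limma, adjusted p = 0.0814). A dimmer one fell by 0.48 on the log2 scale (SE 0.125; adjusted p = 0.0391), with 4318 and 3751 in RA-Dex lungs and 3655 and 4483 in Dex lungs, against 4370 and 5898 in RA lungs and 6269 and 6289 in Dil lungs. Its dexamethasone arrays overlapped the RA arrays, and the call was lost without any one array but RA a (limma, adjusted p = 0.0568 to 0.158). The probe sets of the receptor genes Tgfbr1 and Tgfbr2 were at or under the floor on all 8 arrays. Srf, Myocd and Mrtfb were not analysed here.

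On the brightest probe set of each gene, the non-muscle forms of the same proteins gave no call in either comparison of dexamethasone or in their average. Of all probe sets 2% rose and 1.23% fell in Dex minus Dil, and 3.5% were called in RA-Dex minus RA. In the average 4.26% rose and 3.57% fell. At these shares the lack of a call among 12 genes says little. In each of the 3 contrasts 1 gene had an unadjusted p under 0.05 (limma), in RA-Dex minus RA beside 15.8% of all probe sets. Of 14 listed genes 12 were tested, with list medians of -0.08 in Dex minus Dil, 0.14 in RA-Dex minus RA and -0.02 in the average. Cnn3, a non-muscle calponin, came nearest, at 0.29 in the average (limma, adjusted p = 0.0789). Actb, beta actin, had 0.16 ± 0.230 (SE; limma, adjusted p = 0.762). A dimmer probe set of Myh9, a non-muscle myosin heavy chain, was called in RA-Dex minus RA. It had 3223 and 3893 in RA-Dex lungs, against 2267 and 1989 in RA lungs, a log2 fold change of 0.74 ± 0.175 (SE; limma, adjusted p = 0.0454), where the brightest had 0.19 (adjusted p = 0.609). This call was lost without any one of the 8 arrays (adjusted p = 0.0551 to 0.312), and the probe set carries the family suffix.

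**Figure D4:**
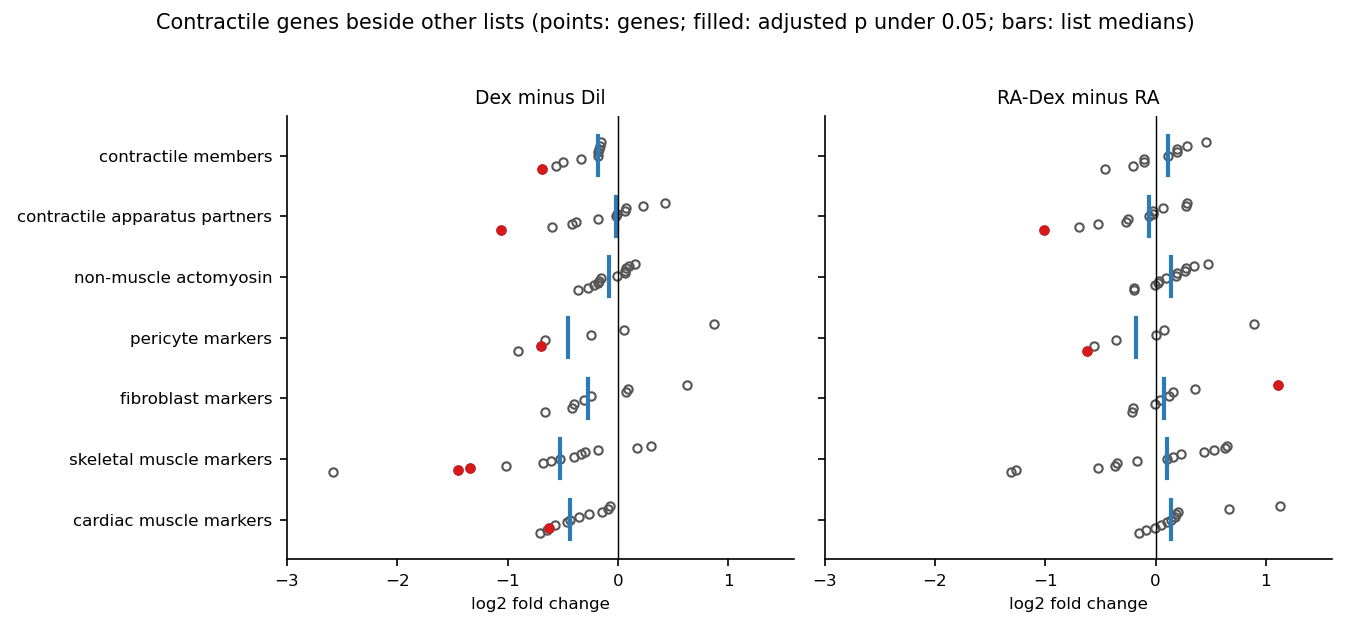
Log2 fold changes in Dex minus Dil (left) and RA-Dex minus RA (right) for the contractile genes and 6 other lists, with each point a tested gene, filled where its adjusted p was under 0.05, and a bar at each list's median. The contractile genes lie between -0.69 and -0.16 on the left and between -0.46 and 0.46 on the right, and the skeletal and cardiac muscle lists have medians of -0.52 and -0.44 on the left and 0.10 and 0.14 on the right.

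Markers of other cells that a lung sample can hold were set beside these results. Of 25 skeletal muscle genes 13 were tested, and their summed signal on the array, over 22 genes, was 9738 to 10158 in RA-Dex lungs, 8248 to 9552 in Dex lungs and 9361 to 10565 in RA lungs, against 14581 to 14600 in Dil lungs. In Dex minus Dil 2 of the 13 fell, beside 1.23% of all probe sets. They were Tnnt1 at -1.35 and Myl1 at -1.45 (limma, adjusted p = 0.00821 and 0.0481). A second probe set of Tnnt1, with 390 and 607 in Dex lungs against 455 and 742 in Dil lungs, overlapped and had -0.26 ± 0.321 (SE; limma, adjusted p = 0.790). The call of Tnnt1 on the brightest was lost without Dex b or Dil a (adjusted p = 0.0578 to 0.0885), and that of Myl1 without any one array but Dex a (0.0556 to 0.270). In the dexamethasone average 3 of the 13 fell, Tnnt1, Myl1 and Tnni1, beside 3.57% of all probe sets, and none rose, beside 4.26%. In RA-Dex against Dil 1 of the 13 fell, Myl1, beside 1.44%. These 2 calls of Myl1 held without each array in turn and were lost with no filter (limma, adjusted p = 0.107). The average calls of Tnnt1 and Tnni1 were lost without any one of 7 arrays. Both Dil arrays were above all others in 5 of the 13, beside 6.2% of all probe sets. The lists were chosen with earlier results of these data known, so such counts describe them only. Acta1, skeletal alpha actin, had 79 and 492 in RA-Dex lungs, 643 and 125 in Dex lungs, 499 and 517 in RA lungs and 2198 and 1314 in Dil lungs. Myh2, a myosin heavy chain gene of fast fibres, was at or under the floor on all arrays.

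Of 16 cardiac genes 11 were tested, and the sum over 15 was 25051 to 25442 in RA-Dex lungs, 21072 to 21198 in Dex lungs and 23957 to 24633 in RA lungs, against 29951 to 31123 in Dil lungs. Cardiac muscle surrounds the pulmonary veins of mice. In Dex minus Dil 1 of the 11 fell, beside 1.23% of all probe sets. It was Actc1, cardiac alpha actin, at 6704 and 7792 in Dex lungs against 10796 and 11456 in Dil lungs (-0.62 ± 0.137, SE; limma, adjusted p = 0.0345). This call was lost without any one of the Dex, Dil or RA-Dex arrays (adjusted p = 0.0682 to 0.277). Its probe set carries the same family suffix as that of Actg2. Both Dil arrays were above all others in 7 of the 11, beside 6.2% of all probe sets. So they were in 3 of 8 fibroblast, 2 of 6 pericyte, 6 of 28 regulator and 2 of 11 partner genes. The 2 pericyte genes, Pdgfrb and Notch3, are also among the 6 regulators, and Pdgfra is listed both as a regulator and as a fibroblast gene. Counts of these lists are therefore not separate observations. In the non-muscle and epithelial lists the counts were 1 of 12 and 0 of 4. The summed signal of the 9 contractile genes followed the order of the cardiac sum at its ends, with 32037 to 32555 in Dex lungs and 41380 to 42265 in Dil lungs. The RA-Dex lungs, at 34305 to 36433, and the RA lungs, at 34797 to 36491, lay between them. A sum highest in Dil lungs was not particular to the cardiac list, since the skeletal, pericyte and fibroblast sums were also highest there. The Dil sums of the partner, regulator, non-muscle and epithelial lists overlapped those of other groups. Des and Tpm2 are also expressed in striated muscle, and the part of striated muscle in the contractile signals was not tested.

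Of 8 pericyte genes 6 were tested. In the dexamethasone average Mcam and Notch3 fell and Rgs5 rose, beside 3.57% of all probe sets that fell and 4.26% that rose. Mcam, an adhesion molecule of vessel walls, had 2796 and 2872 in RA-Dex lungs and 2724 and 2711 in Dex lungs, against 4016 and 4721 in RA lungs and 4163 and 4688 in Dil lungs. The 4 dexamethasone arrays were close to each other and all lower, with a fall of 0.66 on the log2 scale (SE 0.105; limma, adjusted p = 0.00291) that held without each array in turn. Rgs5 rose by 0.88 (SE 0.213; limma, adjusted p = 0.0288), a call lost without any one array but RA b (adjusted p = 0.0542 to 0.126). A second probe set of Rgs5 failed the filter. It had 33.6 and 140 in RA-Dex lungs, against 208 and 181 in RA lungs. In Dex lungs it had 108 and 21.2, against 32.8 and 78.3 in Dil lungs, so some values were under the floor. The summed pericyte signal was 6356 to 7271 in RA-Dex lungs and 6321 to 6681 in Dex lungs, against 7850 to 9132 in RA lungs and 9534 to 9804 in Dil lungs, and its part in the contractile signals was not tested.

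All 8 fibroblast genes were tested, and Pdgfra alone was called in the average, a rise, beside 4.26% of all probe sets that rose. Col1a1 and Col1a2, the chains of type I collagen, had -0.21 and -0.09 in the average (limma, adjusted p = 0.223 and 0.594). In Dex minus Dil they had -0.42 and -0.30 (limma, adjusted p = 0.137 and 0.245), and Pdgfra had 0.63 (0.0768). Dimmer probe sets of Col1a1 and Col1a2 had -0.16 and 0.21. The summed fibroblast signal was 67910 to 70924 in RA-Dex lungs and 62786 to 63528 in Dex lungs. It was 62685 to 63331 in RA lungs and 71105 to 73319 in Dil lungs, and its part in the contractile signals was not tested.

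Of 8 lung epithelium genes 4 were tested, and 1 rose in the dexamethasone average, beside 4.26% of all probe sets. This was Hopx, a homeobox gene of alveolar type I cells. It had 20239 and 19571 in RA-Dex lungs and 20177 and 18501 in Dex lungs, against 15352 and 14940 in RA lungs and 11957 and 9595 in Dil lungs. All 4 dexamethasone arrays were above the others, and the Dil arrays were the 2 lowest. The average was 0.62 ± 0.0938 (SE; limma, adjusted p = 0.00207), a call that held under all alternatives run. In Dex minus Dil it rose by 0.85 (SE 0.133; limma, adjusted p = 0.00544), a call lost without Dex a (adjusted p = 0.0753). Sftpb and Sftpc, surfactant protein genes, and Scgb1a1, a club cell secretory protein gene, had averages of 0.23, -0.02 and -0.04 (limma, adjusted p = 0.181 to 0.940). The summed epithelial signal over 5 genes was 169126 to 180458 in RA-Dex lungs and 150818 to 151703 in Dex lungs, against 153193 to 161828 in RA lungs and 134290 to 171745 in Dil lungs. The part of epithelial cells in the contractile signals was not tested.

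The 5 genes whose profile over the 8 arrays was most like the mean standardised profile of the 9, among 6546 probe sets with a single symbol outside the muscle lists, were Fscn1 with a Pearson correlation of 0.94, Col18a1 with 0.93, Mycbp2 with 0.93, Cd74 with 0.92 and Supt6 with 0.915. Fscn1 encodes the actin-bundling protein fascin. It had 4828 and 3601 in RA-Dex lungs and 2392 and 3625 in Dex lungs, against 5040 and 3380 in RA lungs and 5903 and 8116 in Dil lungs. It was highest in Dil, as follows from how it was picked, since the mean profile was itself highest there. Not every gene of the set was: by group mean Tagln and Smtn were highest in RA lungs and Des in RA-Dex lungs.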

How the data were processed

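The authors deposited intensity signals on a linear scale, 1 per probe set and array, for 8 arrays of whole mouse lung RNA. No source used here names the software that scaled them. All 8 arrays had the same trimmed mean, 800.4 with 2% cut from each end, so the values were not normalised again. Signals under 85.3, the pooled 25th percentile, were set to that floor and converted to log2. Of 12488 probe sets, 66 controls were left out, and the 7309 with a mean log2 above the 40th percentile of the pooled signals (signal 200.8) were tested. Symbols came from the array annotation of 2016, updated by Entrez ID for 10817 of the 10833 probe sets with 1 symbol. A further 396 had several symbols and 1193 none.

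limma 3.58.1 in R 4.3.3 fitted 1 mean per group over all 8 arrays (4 residual and 6.69 prior degrees of freedom), with an intensity trend and two-sided tests of 8 contrasts. The procedure was tested on simulated data with planted changes larger than those of the contractile genes, so its power at their size was not tested. For a listed gene the brightest probe set, by its mean over all arrays, was used. All contractile probe sets were named, and of each other list up to 4 genes per contrast by smallest p, with Mrtfa, Tgfb1, Pdgfra and Actb always given. Dimmer probe sets of these other genes, and Fhl1, were named after their values were seen. The members and the lists were chosen with earlier results of these data known. Alternatives were quantile normalisation, no filter, a stricter filter at the 60th percentile, fits without the intensity trend, a pseudocount instead of the floor, the replicate letter as a block, and leaving out each array or both Dil arrays. Deviations of same-lettered arrays from their group means correlated at -0.22 to 0.14, so the letters were not taken to pair arrays.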

Additional observations from a re-analysis of the deposited data

How the results depend on the processing

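Of 72 gene and comparison pairs of the 9 contractile genes, 68 kept their side of the threshold under all alternatives run, and none reversed. The 4 others are the calls of Actg2 and Tagln. The number of contractile genes called in Dex against Dil and in RA-Dex against Dil was 0 in place of 1 with no filter, with no intensity trend and with the replicate block, and 0 to 1 over the fits without 1 array. In the dexamethasone average it was 0 in place of 2 without the filter or without the intensity trend, 1 with the replicate block, which kept Actg2, and 0 to 2 without 1 array. Under the alternatives the log2 fold change of Actg2 ran from -0.83 to -0.55 in Dex against Dil (limma, adjusted p = 0.0216 to 0.257) and from -0.52 to -0.38 in the average (0.0149 to 0.115). That of Tagln in the average ran from -0.56 to -0.39 (0.0100 to 0.126). Of the 28 other calls of listed genes, each at its brightest probe set, 5 held under all alternatives. The labels do not say whether the letters a and b pair the arrays, so what a call lost under the block means cannot be told. Over all probe sets the calls numbered 80 to 271 in place of 236 in Dex against Dil, 81 to 275 in place of 256 in RA-Dex against RA, and 307 to 585 in place of 572 in the average.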
